A study of Saccharomyces cerevisiae with 4 samples.

Results

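The set described here holds 39 genes of the budding yeast cell wall, of the 6679 systematic gene identifiers in the deposited table. The members are defined by a list of identifiers grouped by function: the beta-glucan and chitin synthases, the KRE genes of beta-1,6-glucan, the GAS, CRH and SCW families and further remodelling enzymes, the yapsins YPS1 and YPS3, the mannoproteins of the wall, and SLT2 and RLM1 of the integrity pathway. All 39 identifiers were found, and 34 of them had a mean of at least 5 RPKM, the level above which genes were tested. RPKM is a read count scaled to gene length and library depth, so levels of different genes can be set side by side.

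Poly(A) RNA was measured in dividing budding yeast (*Saccharomyces cerevisiae*, strain SK1, much used for work on sporulation) to compare cells with and without a driven supply of spliced HAC1 mRNA. The product of HAC1 switches on the unfolded protein response, and the mRNA is translated well only once an intron has been spliced out. The bEST group has 2 libraries, treated at 20 nM and 40 nM with an agent named only as bEST in the labels. The EtOH group has 2 libraries, from cells given ethanol in the volumes matched to those doses. All 4 carry the genotype label WT, grew in shaken YPD, a rich medium, and were taken in exponential phase. The labels give neither mating type nor ploidy, do not say how HAC1 was driven, and do not say that the libraries came from separate cultures. The p-values therefore measure only the spread between these libraries, which may be technical. Within the bEST group that spread includes any effect of dose.

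The libraries held 1183000 (20 nM) and 4161000 (40 nM) reads with bEST, and 2133000 and 2599000 reads with the matched EtOH. HAC1 (YFL031W) stood at 5922 and 3712 RPKM in the bEST libraries, against 487 and 528 RPKM in the EtOH libraries. KAR2 (YJL034W), the ER chaperone gene it controls, stood at 4194 and 3612 RPKM with bEST, against 354 and 395 RPKM with EtOH, and both genes rose. The 2 bEST libraries lay further apart than the 2 EtOH libraries: over the tested genes, the SD of the log2 difference within the pair was 0.628 for bEST and 0.432 for EtOH. Mating genes separated the groups as well. All 5 markers of a-cells rose, with a summed level of 1912 and 3093 RPKM in the bEST libraries against 781 and 416 RPKM in the EtOH libraries. Of 4 markers of alpha-cells, 3 rose, with sums of 742 and 411 RPKM with bEST against 44.6 and 29.7 RPKM with EtOH, and none of these 9 markers was at 0 in any library. Of the 5 early meiosis markers, 2 were above the filter. HOP1 rose, at 13.5 and 12.2 RPKM with bEST against 0.267 and 0.438 RPKM with EtOH. IME1 did not, at 5.78 and 4.46 RPKM with bEST against 5.50 and 5.27 RPKM with EtOH. The 5 summed to 24.5 and 24.4 RPKM with bEST against 8.47 and 9.07 RPKM with EtOH, with most of the difference from HOP1. SPO11 was at 0 in the EtOH library matched to 20 nM. In such bulk samples fewer cells of a type and less RNA per cell cannot be told apart, and the part of these markers in the results on wall genes was not tested.

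The yeast wall is a mesh of beta-1,3-glucan chains, made at the plasma membrane and crosslinked to chitin. Beta-1,6-glucan ties many mannoproteins, sugar-coated proteins that form the outer layer, to that mesh. The mannoproteins and the enzymes that remodel the mesh reach the surface through the endoplasmic reticulum (ER) and the Golgi, which links the wall to the compartment that HAC1 serves. Damage to the wall is sensed by a kinase pathway that ends in the MAP kinase Slt2 and the transcription factor Rlm1.

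Of the 34 tested wall genes, 3 rose with bEST. They were KNH1 and KRE5, both of beta-1,6-glucan formation, and YPS1, a surface protease. A rise here means an adjusted p under 0.05 from limma, with Benjamini-Hochberg adjustment over all 5317 tested genes, of which 2.48% rose. No wall gene fell, where 0.733% of all tested genes did. By limma-voom on recovered reads 3 wall genes were called up and 0 down, beside 222 and 72 of the 5173 genes in that fit. At an unadjusted p under 0.05 there were 6 wall genes, the 3 that rose and CRH1, UTR2 and SED1 on the lower side, which is 17.6% of the 34 beside 16.3% of all tested genes. The median log2 fold change, on the log2(RPKM + 1) scale, was 0.11 over the wall genes and -0.02 over all tested genes. The wall gene median was -0.07 without the 20 nM bEST library, 0.33 without the 40 nM bEST library, and -0.02 with the trend of each library on coding length removed. Both bEST libraries lay above both EtOH libraries in 11 wall genes (32.4%, against 23.0% of all tested genes). They lay below both in 3 (8.82%, against 23.9%), and the groups overlapped in the other 20.

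**Figure D1:**
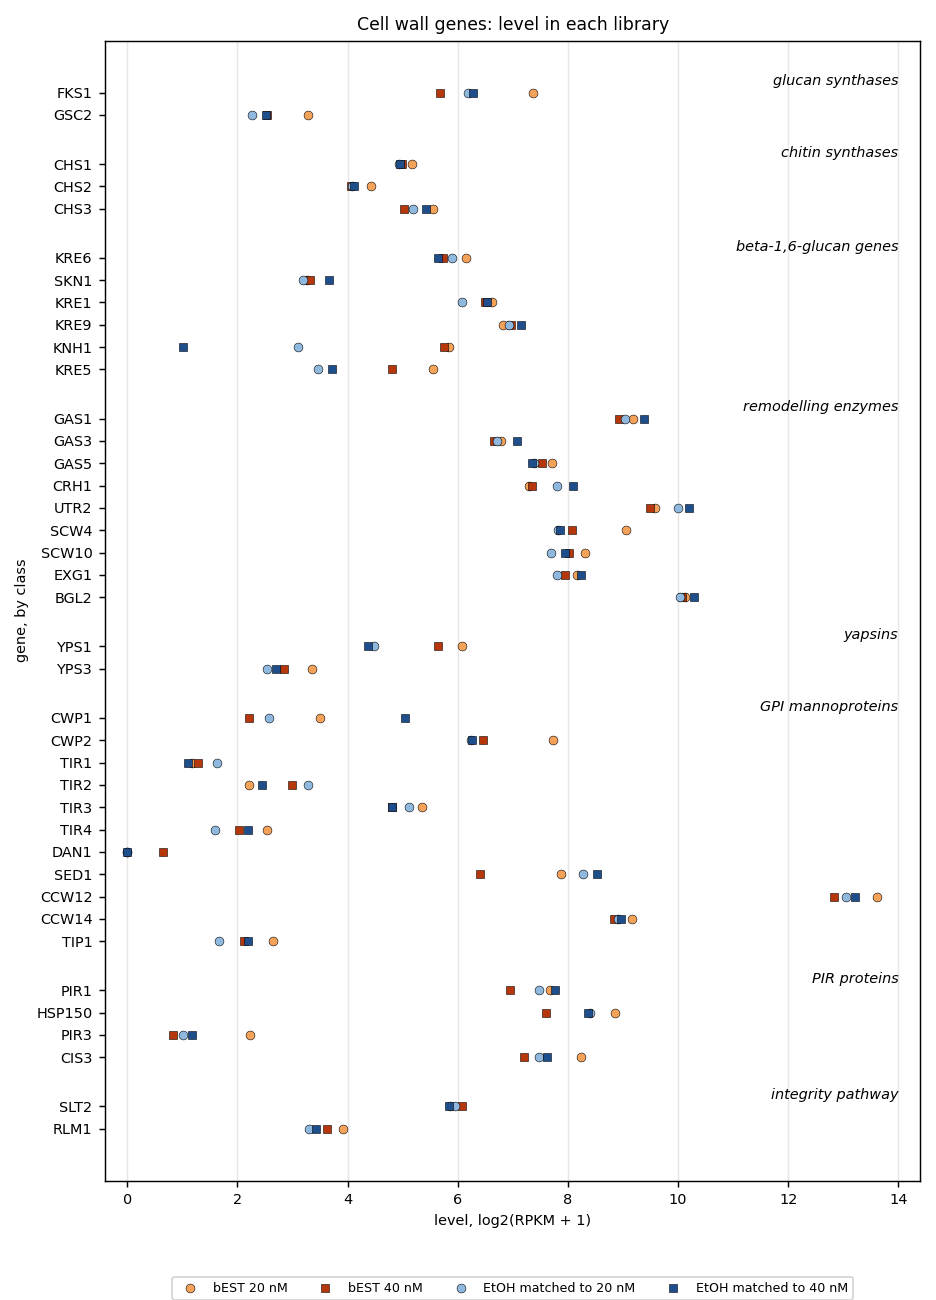
Level of each of the 39 cell wall genes in each library, as log2(RPKM + 1), grouped by class; orange and red symbols are the bEST libraries, light and dark blue symbols the EtOH libraries, and each point is 1 library. KNH1, KRE5 and YPS1 have both bEST libraries well to the right of both EtOH libraries, while the symbols of most other genes are mixed.

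The genes of beta-1,6-glucan formation held 2 of the 3 rises among their 6 members. KNH1 (YDL049C) is a homologue of KRE9 and encodes a surface glycoprotein needed for beta-1,6-glucan when KRE9 is lost. It stood at 56.6 and 52.8 RPKM in the bEST libraries, against 7.53 and 1.03 RPKM in the EtOH libraries. The bEST libraries nearly coincided and were far above the EtOH libraries, which differed widely from each other. KNH1 rose by 3.74 on the log2 scale (SE 0.61, 95% interval 2.29 to 5.20, limma adjusted p = 0.0232, n = 2 each), which was the fifteenth highest value among the tested genes. The EtOH values rest on 12 and 2 reads, and the bEST values on 50 and 164. Without the pseudocount of 1, the log2 ratio of the 40 nM pair was 5.68, with an exact 95% counting interval of 3.80 to 8.74. That of the 20 nM pair was 2.91, with a counting interval of 2.0 to 3.82.

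KRE5 (YOR336W) encodes an ER glycoprotein that resembles the glucosyltransferases of ER quality control and is required for beta-1,6-glucan. Its level was 45.8 and 27.1 RPKM in the bEST libraries, against 10.1 and 12.2 RPKM in the EtOH libraries. Both bEST libraries were clear of both EtOH libraries, with the 20 nM library the higher. KRE5 rose by 1.58 on the log2 scale (SE 0.31, 95% interval 0.84 to 2.33, limma adjusted p = 0.0483). It was read 219 and 456 times in the bEST libraries and 87 and 128 times in the EtOH libraries. The KNH1 call was lost without the 20 nM bEST library (adjusted p = 0.123) and without the 40 nM bEST library (0.0575), and the KRE5 call without the 20 nM bEST library (0.0870). KRE5 also missed the threshold at a pseudocount of 5 (adjusted p = 0.0513), with no filter on low values (0.0650), with median-centred libraries (0.0620) and with no trend of variance on level (0.0719), always in the same direction.

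The other 4 genes of beta-1,6-glucan formation did not pass the test. KRE9 (YJL174W), the close relative of KNH1, stood at 112 and 124 RPKM with bEST, against 120 and 142 RPKM with EtOH. Its log2 fold change was -0.15 (SE 0.23, 95% interval -0.68 to 0.38). KNH1 thus amounted to 50.6% and 42.6% of the KRE9 level in the bEST libraries, against 6.26% and 0.727% in the EtOH libraries. KRE6 (YPR159W), a Golgi and ER membrane protein related to glucanases, stood at 69.9 and 51.9 RPKM with bEST, against 58.9 and 49.2 RPKM with EtOH. Its homologue SKN1 (YGR143W) stood at 8.62 and 8.95 RPKM with bEST, against 8.10 and 11.6 RPKM with EtOH. KRE1 (YNL322C), a surface glycoprotein that also serves as the receptor of K1 killer toxin, stood at 97.7 and 89.4 RPKM with bEST, against 67.0 and 91.2 RPKM with EtOH. The groups overlapped for all 4, and the log2 fold changes of KRE6, SKN1 and KRE1 were 0.16, -0.13 and 0.26, with intervals that include 0.

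The third rise was that of YPS1 (YLR120C), 1 of 2 yapsins in the set. Yapsins are aspartic proteases anchored at the surface by glycosylphosphatidylinositol (GPI), and they process wall proteins and enzymes. YPS1 stood at 66.6 and 48.8 RPKM in the bEST libraries, against 21.3 and 19.6 RPKM in the EtOH libraries. The EtOH libraries nearly coincided and both bEST libraries were well above them. YPS1 rose 2.71-fold, or by 1.44 on the log2 scale (SE 0.25, 95% interval 0.86 to 2.02, limma adjusted p = 0.0266). The call was lost without the 20 nM bEST library (adjusted p = 0.0592), without the EtOH library matched to 40 nM (0.0681) and with no trend of variance on level (0.0513), again with the direction kept.

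YPS3 (YLR121C), the neighbouring yapsin gene on the same strand, stood at 9.22 and 6.22 RPKM in the bEST libraries, against 4.79 and 5.51 RPKM in the EtOH libraries. The bEST libraries were the higher ones, but the gap was small beside the difference between them, and the gene did not pass (0.48, SE 0.41, limma adjusted p = 0.636). YPS3 amounted to 13.8% and 12.8% of the YPS1 level with bEST, against 22.5% and 28.1% with EtOH. On the S288C R64 annotation the coding sequences of these and all other members overlap no neighbouring coding sequence. The library kit keeps strand, but whether the counting used it is not given in the sources used here.

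**Figure D2:**
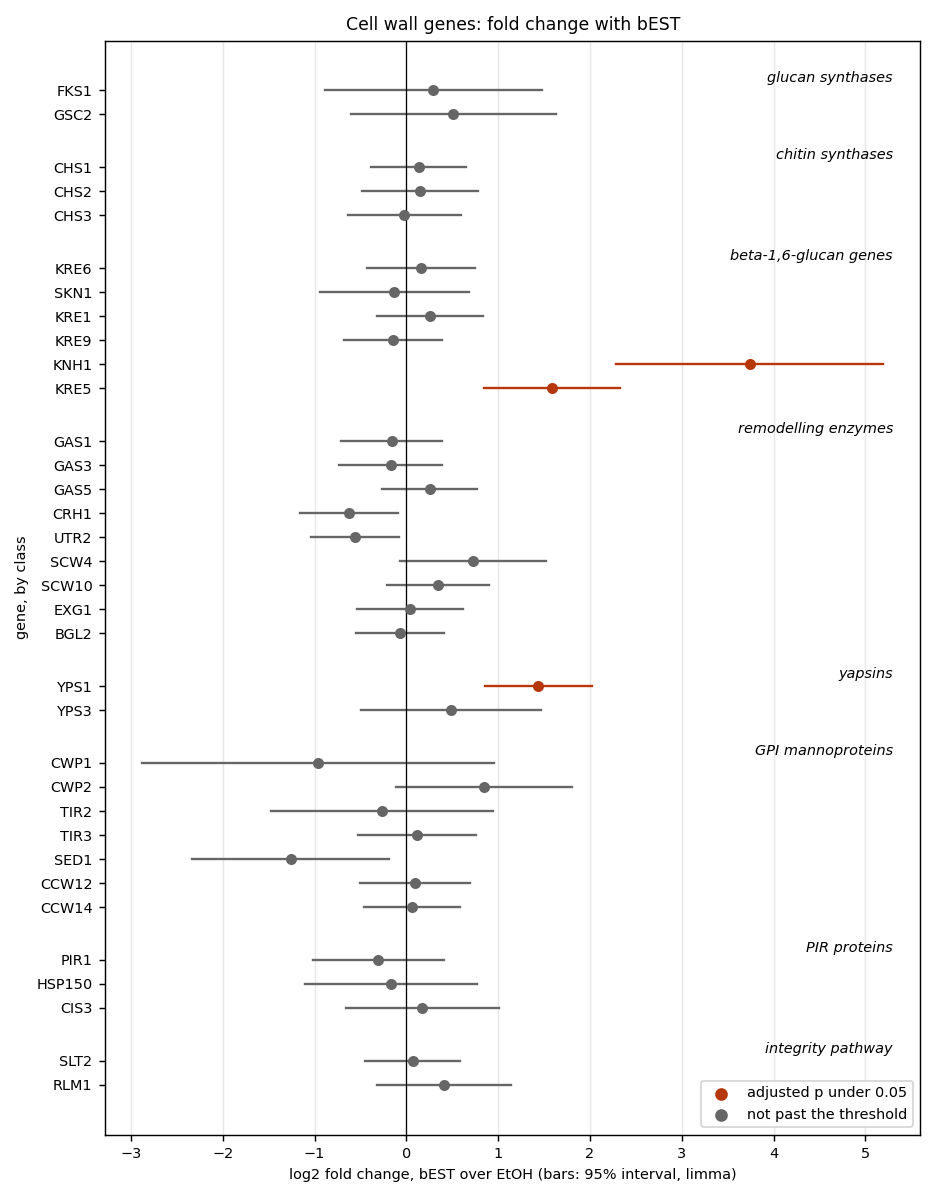
Log2 fold change of bEST over EtOH for the 34 tested cell wall genes by class, with 95% intervals from limma (2 libraries a group); red marks an adjusted p under 0.05. KNH1, KRE5 and YPS1 are the 3 genes in red, and the intervals of CRH1, UTR2 and SED1 lie below 0 without passing the adjusted threshold.

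The synthases that make the glucan and chitin chains gave no call among 5 genes. FKS1 (YLR342W) encodes the main catalytic subunit of beta-1,3-glucan synthase. It stood at 164 and 50.3 RPKM in the bEST libraries, against 71.8 and 76.4 RPKM in the EtOH libraries. The 20 nM bEST library was the highest of the 4 and the 40 nM bEST library the lowest, so the EtOH libraries lay between the bEST libraries. The log2 fold change was 0.29 with a wide 95% interval of -0.89 to 1.48 (SE 0.50, limma adjusted p = 0.829). It came to -0.55 without the 20 nM bEST library, and to 1.14 without the 40 nM bEST library, when FKS1 passed (adjusted p = 0.0306). GSC2 (YGR032W), the alternative catalytic subunit used in stress and sporulation, stood at 8.71 and 4.78 RPKM with bEST, against 3.83 and 4.72 RPKM with EtOH (0.51, SE 0.47). The bEST libraries were above the EtOH libraries only narrowly at 40 nM. GSC2 was 5.31% and 9.52% of the FKS1 level with bEST, against 5.34% and 6.18% with EtOH.

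Chitin is made by several synthases with separate tasks. CHS1 (YNL192W), which repairs the wall at cell separation, stood at 35 and 30.8 RPKM with bEST, against 29.7 and 30.0 RPKM with EtOH. CHS2 (YBR038W), which lays down the primary septum between mother and bud, stood at 20.6 and 15.8 RPKM with bEST, against 15.9 and 16.4 RPKM with EtOH. CHS3 (YBR023C), the source of most wall chitin and of the ring at the bud neck, stood at 45.7 and 31.7 RPKM with bEST, against 35.6 and 42.1 RPKM with EtOH. The libraries of CHS1 were separated by a narrow gap, and those of CHS2 and CHS3 overlapped. Their log2 fold changes were 0.13 (95% interval -0.39 to 0.65), 0.15 (-0.48 to 0.78) and -0.02 (-0.64 to 0.59).

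Among the 9 enzymes that cut and rejoin wall polymers none passed the adjusted threshold, and the median log2 fold change was -0.07. The lowest values belonged to the paired transglycosylases CRH1 and UTR2, which join chitin to glucan. CRH1 (YGR189C) stood at 155 and 162 RPKM in the bEST libraries, against 222 and 271 RPKM in the EtOH libraries. UTR2 (YEL040W) stood at 761 and 718 RPKM in the bEST libraries, against 1020 and 1169 RPKM in the EtOH libraries. In both genes the bEST libraries were close to each other and below both EtOH libraries. The log2 fold changes were -0.63 for CRH1 (SE 0.23, 95% interval -1.16 to -0.09) and -0.56 for UTR2 (SE 0.20, 95% interval -1.04 to -0.08). Neither passed after adjustment (limma adjusted p = 0.224 each). UTR2 was read at a similar multiple of CRH1 in every library, at 490% and 443% of its level with bEST, against 459% and 431% with EtOH.

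At the other end of the enzyme class was SCW4 (YGR279C), a soluble wall protein related to glucanases. It stood at 531 and 269 RPKM in the bEST libraries, against 224 and 232 RPKM in the EtOH libraries. The 20 nM bEST library stood far above the rest, and the 40 nM bEST library slightly above the EtOH libraries. The log2 fold change was 0.73 (SE 0.34, 95% interval -0.07 to 1.52, limma adjusted p = 0.352), and it was 1.22 without the 40 nM bEST library, when SCW4 passed (adjusted p = 0.0259). Its homologue SCW10 (YMR305C) stood at 317 and 258 RPKM with bEST, against 207 and 245 RPKM with EtOH (0.35, SE 0.23). SCW10 amounted to 59.8% and 95.9% of the SCW4 level with bEST, against 92.0% and 105.9% with EtOH.

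The GAS family includes genes of GPI-anchored enzymes that elongate beta-1,3-glucan. GAS1 (YMR307W), its main member in growing cells, stood at 576 and 484 RPKM with bEST, against 524 and 666 RPKM with EtOH. GAS3 (YMR215W) stood at 110 and 101 RPKM with bEST, against 105 and 135 RPKM with EtOH. GAS5 (YOL030W) stood at 207 and 184 RPKM with bEST, against 166 and 162 RPKM with EtOH. GAS1 and GAS3 overlapped between the groups (-0.16 and -0.17), while GAS5 had both bEST libraries on top by a small margin (0.25, SE 0.22). The endoglucanase gene BGL2 (YGR282C), with the second highest mean level of the set, stood at 1116 and 1081 RPKM with bEST, against 1055 and 1256 RPKM with EtOH. The exoglucanase gene EXG1 (YLR300W) stood at 286 and 247 RPKM with bEST, against 224 and 300 RPKM with EtOH. Both overlapped between the groups, with log2 fold changes of -0.07 and 0.04.

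**Figure D3:**
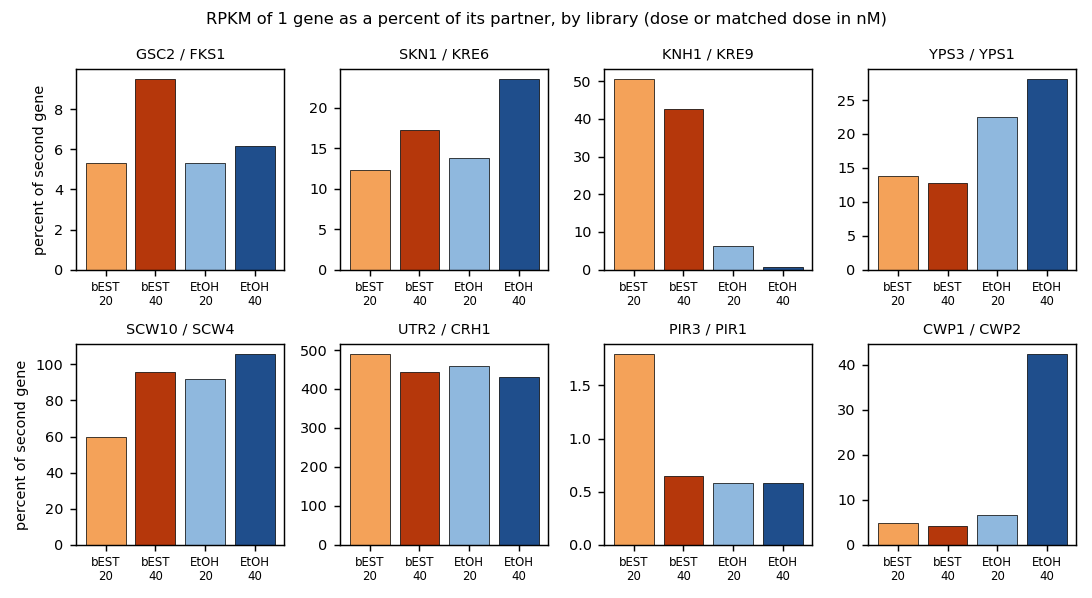
RPKM of 1 gene as a percent of its partner gene in each library, for 8 pairs of related wall genes; bars start at 0, each panel has its own scale, and the numbers under the bars are the dose or matched dose in nM. KNH1 reached 50.6% and 42.6% of KRE9 in the bEST libraries against 6.26% and 0.727% in the EtOH libraries, and UTR2 kept a similar multiple of CRH1 in all 4.

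The GPI-anchored mannoproteins form the largest class, with 11 members, of which 7 were above the filter and none passed. CCW12 (YLR110C), a small and very abundant protein of growing wall, dominated the set: it held 64.3% and 58.2% of the summed RPKM of all 39 genes in the bEST libraries, against 58.9% and 58.3% in the EtOH libraries. Its level was 12445 and 7305 RPKM with bEST, against 8427 and 9454 RPKM with EtOH. The EtOH libraries lay between the bEST libraries, as in FKS1, and the log2 fold change was 0.10 (95% interval -0.51 to 0.70). CCW14 (YLR390W-A), a protein of the inner wall layer, stood at 570 and 456 RPKM with bEST, against 483 and 496 RPKM with EtOH (0.06, SE 0.22).

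SED1 (YDR077W), a wall glycoprotein known for its abundance in stationary cells, had the lowest log2 fold change of the set, -1.26 (SE 0.45, 95% interval -2.33 to -0.19, limma adjusted p = 0.224). It stood at 233 and 83.3 RPKM in the bEST libraries, against 307 and 367 RPKM in the EtOH libraries. Both bEST libraries were below both EtOH libraries, the 40 nM library by far the most. Without the 20 nM bEST library the log2 fold change of SED1 was -2.0. SED1 passed with the dose as a block (limma adjusted p = 0.0123), in a fit that used 1 variance trend for all genes and not the spread of SED1 itself. Of the windows of 50 bases in its coding sequence, 4.75% occur more than once in R64. Copies inside SED1 itself were counted too, so how many of its reads could belong to another gene is not known.

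CWP2 (YKL096W-A), a major mannoprotein, stood at 212 and 86.7 RPKM in the bEST libraries, against 74.9 and 75.5 RPKM in the EtOH libraries. The EtOH libraries coincided, and the 20 nM bEST library was well above the other 3. The log2 fold change was 0.84 (SE 0.40, 95% interval -0.11 to 1.80, limma adjusted p = 0.370), and 1.48 without the 40 nM bEST library, when CWP2 passed (adjusted p = 0.0216). CWP1 (YKL096W), its relative at the birth scar, stood at 10.2 and 3.64 RPKM with bEST, against 4.97 and 32.1 RPKM with EtOH. Only the EtOH library matched to 40 nM stood out, with 55 reads against 7 in the other EtOH library and 8 and 10 in the bEST libraries. The log2 fold change of CWP1 was -0.96 (SE 0.81, limma adjusted p = 0.631). It ran between -2.19 without the EtOH library matched to 20 nM and 0.27 without the EtOH library matched to 40 nM.

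The TIR genes, DAN1 and TIP1 encode mannoproteins known for expression in the cold or without oxygen, and most were scarcely read. TIR3 (YIL011W) stood at 39.7 and 26.8 RPKM with bEST, against 33.6 and 26.9 RPKM with EtOH (0.12, SE 0.27). TIR2 (YOR010C) stood at 3.64 and 6.91 RPKM with bEST, against 8.76 and 4.42 RPKM with EtOH (-0.26, SE 0.51). In both the groups overlapped. The remaining 4 were below the filter and not tested. TIR4 (YOR009W) stood at 4.82 and 3.08 RPKM with bEST, against 2.0 and 3.56 RPKM with EtOH. Of its windows, 20.2% occur more than once in R64, copies inside the gene included. TIP1 (YBR067C) stood at 5.24 and 3.35 RPKM with bEST, against 2.18 and 3.58 RPKM with EtOH. TIR1 (YER011W) stood at 1.26 and 1.44 RPKM with bEST, against 2.10 and 1.15 RPKM with EtOH, with 13.0% of its windows repeated. DAN1 (YJR150C) was read 2 times in the 40 nM bEST library, which is under the floor of 3 reads taken here, and 0 times in the other libraries.

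The PIR proteins, named for their internal repeats, are bound directly to beta-1,3-glucan. HSP150 (YJL159W) stood at 460 and 192 RPKM in the bEST libraries, against 339 and 329 RPKM in the EtOH libraries. CIS3 (YJL158C) stood at 302 and 146 RPKM with bEST, against 177 and 197 RPKM with EtOH. PIR1 (YKL164C) stood at 205 and 122 RPKM with bEST, against 177 and 215 RPKM with EtOH. HSP150 and CIS3 had the 20 nM bEST library highest and the 40 nM bEST library lowest, with the EtOH libraries between them, and PIR1 also had the 40 nM bEST library lowest. The log2 fold changes were -0.17 (SE 0.40), 0.17 (SE 0.35) and -0.30 (SE 0.30), and the groups overlapped in all 3. PIR3 (YKL163W) was below the filter, at 3.68 and 0.785 RPKM with bEST, against 1.02 and 1.26 RPKM with EtOH, on 4 reads or fewer per library. Repeated windows make up 7.38% of HSP150, 7.16% of PIR1, 10.8% of PIR3 and 2.52% of CIS3. Copies inside the same gene were counted too. How many reads of each PIR gene could belong to another gene is therefore not known.

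The pathway that answers wall damage did not pass in either of its members. SLT2 (YHR030C), the MAP kinase gene, stood at 56.8 and 66.2 RPKM with bEST, against 60.7 and 56.5 RPKM with EtOH (0.07, SE 0.22, 95% interval -0.45 to 0.59). RLM1 (YPL089C), the gene of the transcription factor below it, stood at 14.2 and 11.4 RPKM with bEST, against 8.81 and 9.77 RPKM with EtOH (0.41, SE 0.31, 95% interval -0.32 to 1.14). SLT2 overlapped between the groups, and RLM1 had both bEST libraries slightly above both EtOH libraries. These are transcript levels, and the activity of the kinase was not measured.

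The 2 bEST libraries held the wall genes at different levels. Each dose has 1 library per treatment, so the log2 ratios of a bEST library to its volume-matched EtOH library are given without a test. At 20 nM the median ratio of the 34 tested wall genes was 0.35, beside -0.10 over all tested genes. At 40 nM it was -0.09, beside 0.07 over all tested genes. The ratio was larger at 20 nM than at 40 nM in 31 of the 34 (91.2%), a relation found in 38.3% of all tested genes. In 16 (47.1%, against 15.1% of all tested genes) the bEST library was the higher of its pair at 20 nM and the lower at 40 nM. Against the EtOH library of the other dose, the wall gene medians were 0.26 at 20 nM and 0.013 at 40 nM. Over all tested genes they were then -0.06 and 0.0059. The counts hold for the volume-matched pairs only, since with the other EtOH library some genes changed order, such as GAS1 (-0.21 and -0.12). Since the same 4 libraries stand behind every gene, these counts describe the libraries and do not stand for repeated observations.

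By size, 7 wall genes were at least 2-fold higher with bEST in the 20 nM pair (20.6%, against 6.79% of all tested genes). They were FKS1, GSC2, KNH1, KRE5, SCW4, YPS1 and CWP2, of which FKS1 and GSC2 were no longer 2-fold with the length trend removed (0.32 and 0.13). In the 40 nM pair 3 were at least 2-fold higher (8.82%, against 6.86%), namely KNH1, KRE5 and YPS1. TIR2 was the 1 tested wall gene at least 2-fold lower at 20 nM (2.94%, against 8.01% of all tested genes). At 40 nM there were 2, CWP1 and SED1 (5.88%, against 2.46%). The counting error of these ratios is small for the well-read genes: without a pseudocount the FKS1 ratio was 1.19 at 20 nM (95% counting interval 1.06 to 1.32) and -0.60 at 40 nM (-0.72 to -0.49). It is wide for sparsely read genes: the TIR2 ratio at 20 nM, on 3 and 13 reads, was -1.27 with an interval that includes 0 (-3.72 to 0.60).

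By class, the glucan synthases had median ratios of 1.09 at 20 nM and -0.29 at 40 nM, and the PIR proteins 0.44 and -0.77. The remodelling enzymes had 0.14 and -0.28, the mannoproteins 0.24 and -0.12, and the chitin synthases 0.35 and -0.06. Against the EtOH library of the other dose the remodelling enzymes turned round, to -0.17 at 20 nM and 0.03 at 40 nM. With the length trend removed, the 20 nM ratios of CHS1, CHS2 and CHS3 were below 0 (-0.33, -0.10 and -0.22). The medians of the yapsins (1.21 and 0.71), the genes of beta-1,6-glucan (0.39 and 0.02) and the integrity pathway (0.27 and 0.21) were above 0 at both doses. Below 0 were KRE9 at both doses (-0.11 and -0.19), KRE1 (-0.03) and SKN1 (-0.34) at 40 nM, and SLT2 at 20 nM (-0.09). With the length trend removed, KRE6 (-0.01), KRE1 (-0.12), KRE9 (-0.26) and SKN1 (-0.42) were below 0 at 40 nM. KNH1 (4.66) and KRE5 (1.07) were then above 0. The summed RPKM of all 39 genes stood at 19368 and 12560 in the bEST libraries, against 14312 and 16211 in the EtOH libraries. Without CCW12 the sums were 6923 and 5256 RPKM with bEST, against 5884 and 6757 RPKM with EtOH.

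**Figure D4:**
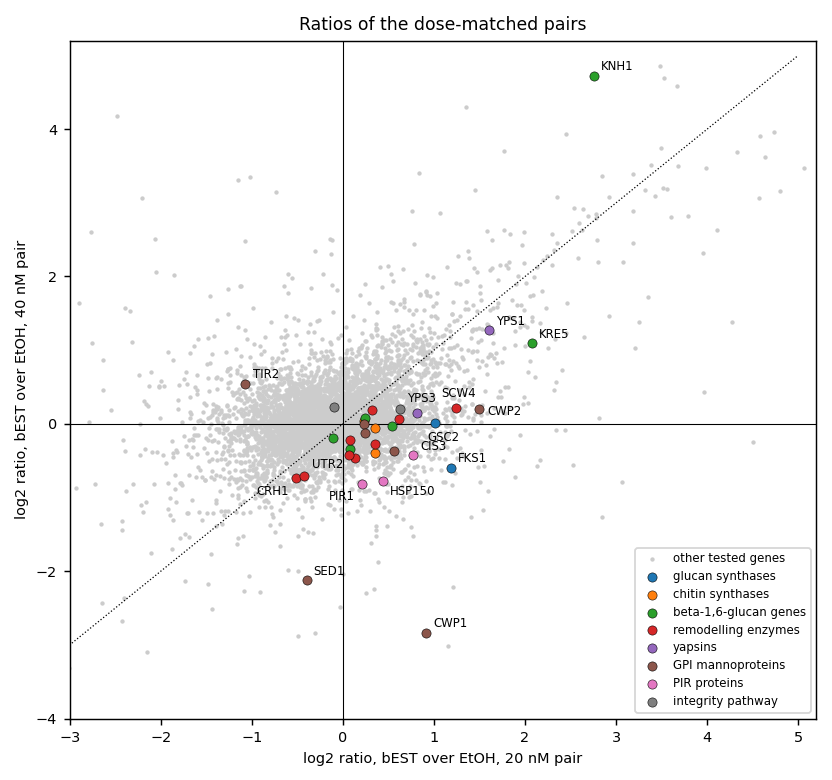
Log2 ratio of bEST over its volume-matched EtOH library at 20 nM (x axis) and at 40 nM (y axis), with a pseudocount of 1; each point is a gene, wall genes coloured by class and other tested genes grey, and the dotted line marks equal ratios. Of the 34 tested wall genes, 31 lie below the dotted line, FKS1, HSP150 and CIS3 among those higher at 20 nM and lower at 40 nM, and KNH1 is far above it.

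Coding length moved with the 20 nM ratio over the whole table. Across 5178 genes with a matched length, which share the same libraries, Spearman's rho was 0.376 for the 20 nM ratio and 0.123 for the 40 nM ratio. The median 20 nM ratio was -0.39 for coding sequences of up to 600 bases and 0.39 for those between 3000 and 4500 bases, and it was 0.69 for the 107 genes over 4500 bases, where FKS1 and GSC2 belong. The 20 nM bEST library is also the shallowest. The tested wall genes had a median coding length of 1376 bases, beside 1224 bases for all tested genes. With each library's trend on length removed, which was tried after seeing the data, the ratio was still larger at 20 nM in 29 of the 34 (85.3%, against 35.1% of tested genes). At least 2-fold higher at 20 nM were then 6 (17.6%, against 5.81% of tested genes), with CWP1 (1.09) added and FKS1 and GSC2 gone. The same 3 genes rose, with log2 fold changes of 3.79 for KNH1, 1.24 for KRE5 and 1.32 for YPS1.

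Further genes of the wall were read from 3 lists outside the set. Of 24 genes of integrity signalling upstream and beside SLT2, from the surface sensors to the kinases and phosphatases, 21 were tested. None rose or fell by limma, where 2.48% and 0.733% of all tested genes did, and none by limma-voom. In a list of 21 genes, 0 calls is near those shares. None had an unadjusted p under 0.05 by limma, beside 16.3% of all tested genes. Their median log2 fold change was 0.02, with values between -0.61 and 0.62. Of 39 further genes of polymer synthesis and remodelling, 34 were tested and 1 rose (2.94%, against 2.48% of all tested genes). That was GFA1 (YKL104C), the first enzyme of the route to the sugar nucleotide from which chitin is made, at 303 and 232 RPKM with bEST, against 77.5 and 75.1 RPKM with EtOH. Its log2 fold change was 1.78 (SE 0.24, limma adjusted p = 0.0107), with both bEST libraries far above both EtOH libraries. KEG1 and CHS7, with helper functions in making beta-1,6-glucan and in exporting Chs3 from the ER, missed the threshold by limma (1.35 and 0.92, adjusted p = 0.101 and 0.0797) and passed by limma-voom; both were chosen after their values were seen. None of this list fell by either tool, and its median was 0.06. At an unadjusted p under 0.05 by limma, 4 were on the upper side, GFA1 among them, and 4 on the lower side. Of all 5317 tested genes, 482 and 387 were.

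Of 30 further wall proteins, 20 were tested and 2 rose (10%, against 2.48% of all tested genes), both cell-cell adhesion proteins of mating. AGA1 (YNR044W), the anchor subunit of a-agglutinin, stood at 232 and 75.5 RPKM with bEST, against 8.36 and 5.19 RPKM with EtOH (4.13, SE 0.51, limma adjusted p = 0.00785). SAG1 (YJR004C), alpha-agglutinin, stood at 268 and 108 RPKM with bEST, against 8.67 and 11.2 RPKM with EtOH (3.98, SE 0.42, limma adjusted p = 0.00441). In both the bEST libraries were far above the EtOH libraries, with the 20 nM library the higher. SAG1 is also 1 of the alpha-cell markers given above. None of this list fell by limma, while limma-voom called 2 lower, HPF1 and PLB2, and the median of the list was 0.22. At an unadjusted p under 0.05 by limma, 6 were on the upper side, AGA1 and SAG1 among them, and 2 on the lower side. Of all 5317 tested genes, 482 and 387 were.

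**Figure D5:**
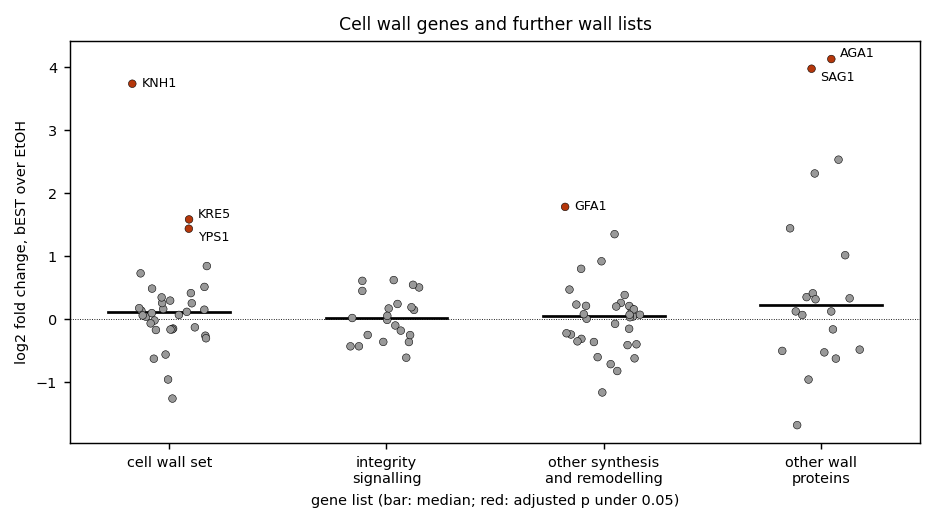
Log2 fold change of bEST over EtOH for the tested genes of the 39-gene wall set and of 3 further wall lists; each point is a gene, bars are medians and red marks an adjusted p under 0.05. The medians, 0.11, 0.02, 0.06 and 0.22, are close to 0, and the calls are single genes above the rest.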

How the data were processed

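The deposited table gives 1 value per gene and library and names no unit. The values were taken as the authors' RPKM, reads scaled to gene length and library depth: multiplied by the R64 coding length less 60 bases they are whole multiples of 1 step per library, within 0.05 reads for 92.7% to 93.7% of values of up to 50 reads. Those steps gave the reads and depths used here, for 5982 identifiers, and 697 identifiers (at most 2.07% of RPKM) had no matching length. For 9 of the 39 members the steps did not come out whole in every library, so their reads are approximate; the other 30 did. STAR and SAMtools are named, per the submitters' processing notes. How reads were counted, and with which build, annotation and filters, is not given in the sources used here, so no coordinates or sequences are printed.

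Groups and doses came from sample titles. The bEST and EtOH libraries were compared with limma (version 3.58.1, R 4.3.3) after log2 transformation of RPKM with a pseudocount of 1; the variance was allowed to follow the level, no covariate was used, and the 5317 genes averaging 5 RPKM or more entered, at a Benjamini-Hochberg adjusted p under 0.05. The fold change scale understates changes of low genes. The script was tested on simulated data first. Alternatives were other pseudocounts and filters, median centring, limma-voom on recovered reads with TMM scaling, limma settings, dose blocks, removal of the length trend and each library left out. Counting intervals (95%) cover counting error only, since reads carry no molecular identifiers. Named genes are all members, HAC1, KAR2, and genes of the 3 further wall lists that passed; marker genes, KEG1, CHS7, HPF1 and PLB2 were named after their values were seen. Members and lists were chosen with earlier results of these data known.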

Additional observations from a re-analysis of the deposited data

Results flagged for a closer look

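In 6 wall genes the bEST library lay on opposite sides of its volume-matched EtOH library at the 2 doses, with log2 ratios more than 1 apart. With 1 library per dose and treatment, the difference between doses was not tested. FKS1 had 1.18 at 20 nM and -0.59 at 40 nM, but 0.32 and -0.57, less than 1 apart, with the trend of each library on coding length removed. HSP150 had 0.44 and -0.77, CIS3 0.77 and -0.42, and PIR1 0.21 and -0.82. CWP1 had 0.91 and -2.83, and TIR2 went the other way with -1.07 and 0.54. Against the EtOH library of the other dose, the signs stayed opposite in FKS1 (1.09 and -0.51), HSP150 (0.48 and -0.81) and CIS3 (0.62 and -0.27). They did not in PIR1 (-0.07 and -0.54), CWP1 (-1.56 and -0.36) and TIR2 (-0.22 and -0.30). CWP1 was read 8 and 10 times with bEST, against 7 and 55 times with EtOH, and TIR2 3 and 20 times with bEST, against 13 and 8 times with EtOH.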

How the results depend on the processing

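Of 503 refits of single wall genes, 456 kept the direction and side of the threshold, 10 lost a call, 9 gained one and 28 changed sign, all 28 in genes that had not passed. Other filters, other variance settings and the dose blocks leave a fold change as it was, so those refits could move only a call. KNH1, KRE5 and YPS1 stayed above 0 throughout, between 2.71 and 4.78, 1.22 and 1.95, and 1.22 and 1.66 on the log2 scale with 1 library left out. In these genes both bEST libraries lay above both EtOH libraries, so leaving 1 library out could not turn the sign. DAN1, PIR3, TIR1 and TIP1 had at most 8 reads in any library and were below the filter. Causes were not tested.

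Of all tested genes, 132 rose in the reported fit, against 222 with limma-voom on recovered reads. The fell count was 39, against 66 with median centring, 72 with voom, 25 with no trend of variance on level and 64 with the length trend removed. With the dose as replicate block, 243 rose and 123 fell, and 1 wall gene fell (SED1). The doses pair the libraries only by volume. Across the tested genes, which share the same libraries, deviations of same-dose libraries from their group means had a weak negative correlation (r = -0.205). With the pairing crossed, chosen after seeing this, 363 rose and 305 fell, 5 and 1 of them wall genes. Both block fits, and those without an EtOH library, used 1 variance trend for all genes. With 1 library left out, between 113 and 333 genes rose and between 32 and 460 fell, both highest without the 40 nM bEST library. Of wall genes, between 0 (without the 20 nM bEST library) and 5 (without the 40 nM bEST library) rose, and between 0 and 1 fell. With no trend of variance on level, 1 wall gene rose.

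The class median of the yapsins was 1.44 with a mean of at least 20 RPKM or with members of at least 50 reads only, since YPS1 alone was then left. That of the integrity pathway was 0.19 at a pseudocount of 5, 0.066 with a mean of at least 20 RPKM and 0.12 with the length trend removed, and that of the chitin synthases was then -0.17. With 1 library left out, class medians ran over 0 in the glucan synthases (-0.21 to 1.01), chitin synthases (-0.03 to 0.23), remodelling enzymes (-0.19 to 0.06), mannoproteins (-0.16 to 0.22) and PIR proteins (-0.68 to 0.46). Removing the length trend also turned the sign in FKS1 (-0.13), CHS1 (-0.17), CHS2 (-0.11), KRE6 (-0.021), EXG1 (-0.024) and SLT2 (-0.011). With 1 library left out, the log2 fold change ran over 0 in FKS1 (-0.55 to 1.14), CHS2 (-0.032 to 0.33), CHS3 (-0.28 to 0.23), KRE6 (-0.052 to 0.37), SKN1 (-0.37 to 0.10), GAS1 (-0.34 to 0.010), GAS3 (-0.35 to 0.0073), EXG1 (-0.17 to 0.25), BGL2 (-0.19 to 0.058), CWP1 (-2.19 to 0.27), TIR2 (-0.69 to 0.16), TIR3 (-0.16 to 0.39), CCW12 (-0.29 to 0.48), CCW14 (-0.10 to 0.22), PIR1 (-0.68 to 0.067), HSP150 (-0.79 to 0.46), CIS3 (-0.35 to 0.69) and SLT2 (-0.042 to 0.17). Of 234 dose ratios recomputed, 29 moved beyond counting error.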
